A study of Mus musculus with 6 samples.

Results

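The genes described are 8 members and relatives of the BCL2 family, which decide whether a cell keeps its mitochondria sealed: Bcl2, Bcl2l1, Mcl1, Bcl2l11, Bid, Bad, Bak1 and Bnip3. They were found by gene name on the array, and the set was chosen with earlier results of these data known; they make up 8 of 27361 gene names. All 8 were well above background on all 6 arrays and none was saturated, so all 8 entered the tests, among 19044 genes in all.

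BCL2 family proteins share short BCL2 homology (BH) motifs. The pro-survival proteins BCL2, BCL-XL (from Bcl2l1) and MCL1 bind and restrain the effectors BAK and BAX, which otherwise open the outer mitochondrial membrane and release cytochrome c. Proteins that carry the BH3 motif alone, such as BIM (from Bcl2l11), BID and BAD, bind the pro-survival proteins or the effectors and tip the balance towards death. BNIP3 is a more distant relative that sits in the mitochondrial membrane and marks mitochondria for removal by autophagy. Bcl2l11 is a known target of FoxO transcription factors, and Bnip3 of hypoxia-inducible factor (HIF). In macrophages, several of these genes are known to respond to microbial products and cytokines.

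The cells were macrophages grown from C57BL/6 bone marrow for 7 days in 10% L929-conditioned medium. Control cells (WT) were FoxO1 Fl/Fl, and knockout cells (KO) were FoxO1 Fl/Fl with LysMcre, a Cre recombinase under the lysozyme M promoter of myeloid cells; both genotypes therefore carried the floxed allele and only KO carried Cre, so the loss of Foxo1 and the presence of Cre cannot be told apart. M0 cells were left without added stimulus. Lipopolysaccharide (LPS, 100 ng/ml) and interferon-gamma (20 ng/ml) gave M1 cells, and IL-4 and IL-13 (10 ng/ml each) gave M2 cells, over 24 hours. Each of the 6 combinations of genotype and state was measured on 1 one-colour array. The sources used here do not say whether the RNAs came from separate animals. A level below is the log2 signal of a gene's brightest probe minus the 75th percentile of its array, and a difference of 1 is a 2-fold change. Differences between states were tested over both genotypes and differences between genotypes over the 3 states, in 1 limma fit across all genes with Benjamini-Hochberg adjustment; a gene was called at an adjusted p under 0.05. Pairs of single arrays have no replicate and no test. In these bulk RNAs, fewer cells of a type and less RNA per cell cannot be told apart.

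The WT M0 and WT M1 arrays lay on 1 slide and the other 4 arrays on a second slide. M1 and M0 were therefore on the same slide within each genotype, and only in M2 did KO and WT share a slide. The 75th percentile of signal ran from 532 to 628 units. All 9 macrophage markers on the array were well above background on every array, and the sum of their signals (on the log2 scale of the levels) ran from 9.27 to 9.89. The summed neutrophil and granulocyte markers were highest on WT M0 (6.43) and ran from 3.26 to 4.99 elsewhere. The summed liver markers were 5.01 on WT M0, where all 10 were well above background, 0.43 on KO M1, and -2.79 to -1.99 on the other arrays. The part of those transcripts in the results below was not tested. The KO differences from M0 given below do not use the WT M0 array, but those of M1 do use the KO M1 array. The limma tests use all 6 arrays. Foxo1 read 1.50, 0.96 and 1.50 in WT M0, M1 and M2 and -1.42, -1.81 and -1.16 in KO, which was lower on every KO array by a mean of 2.78 (adjusted p = 0.304, limma; 0.00877 with a variance prior that follows signal intensity).

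Several members have more than 1 probe, and for some of them the probes differed, so 4 of the 60-base probes are shown. They lie in the coding parts of the transcripts and were chosen for display after the values were seen. The Bcl2l11 probe begins within the part that encodes the BH3 motif and runs on past it. Coordinates are those of the array files (mm9). The Bcl2 probe is at chr1:108608970-108609029, the Bcl2l1 probe at chr2:152655185-152655244 and the Bak1 probe at chr17:27158232-27158291, all on the minus strand. The Bcl2l11 probe spans 11096 bases of genome, chr2:127972893-127983988 on the plus strand, and so crosses an exon junction.
Bcl2: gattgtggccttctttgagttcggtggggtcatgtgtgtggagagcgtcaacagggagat
Bcl2l1: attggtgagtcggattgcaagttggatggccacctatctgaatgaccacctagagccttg
Bcl2l11: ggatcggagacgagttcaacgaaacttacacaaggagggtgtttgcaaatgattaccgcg
Bak1: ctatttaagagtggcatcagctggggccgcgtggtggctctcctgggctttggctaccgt

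None of these 4 is the brightest probe of its gene, and the brightest probe gave each gene its level. The brightest Bcl2l11 probe is at chr2:127988051-127988110 and the brightest Bak1 probe at chr17:27156967-27157026, both nearer the 3′ end of the transcript than the probes printed above.

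Stimulation with LPS and interferon-gamma moved the family in both directions. Against M0, the effector Bak1, the BH3-only gene Bid and the mitophagy receptor Bnip3 rose, and Bcl2l11, the gene of the BH3-only protein BIM, fell. These 4 calls among 8 members compare with 25.6% of all genes tested. By direction, 3 members rose against 11.6% of all genes, and 1 fell against 14% of all genes. The members' median difference was 0.73, and that of all genes tested was 0.03. The 4 M1 and M0 arrays of each of the 8 members did not overlap between states, which was also so for 63% of all genes.

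**Figure D1:**
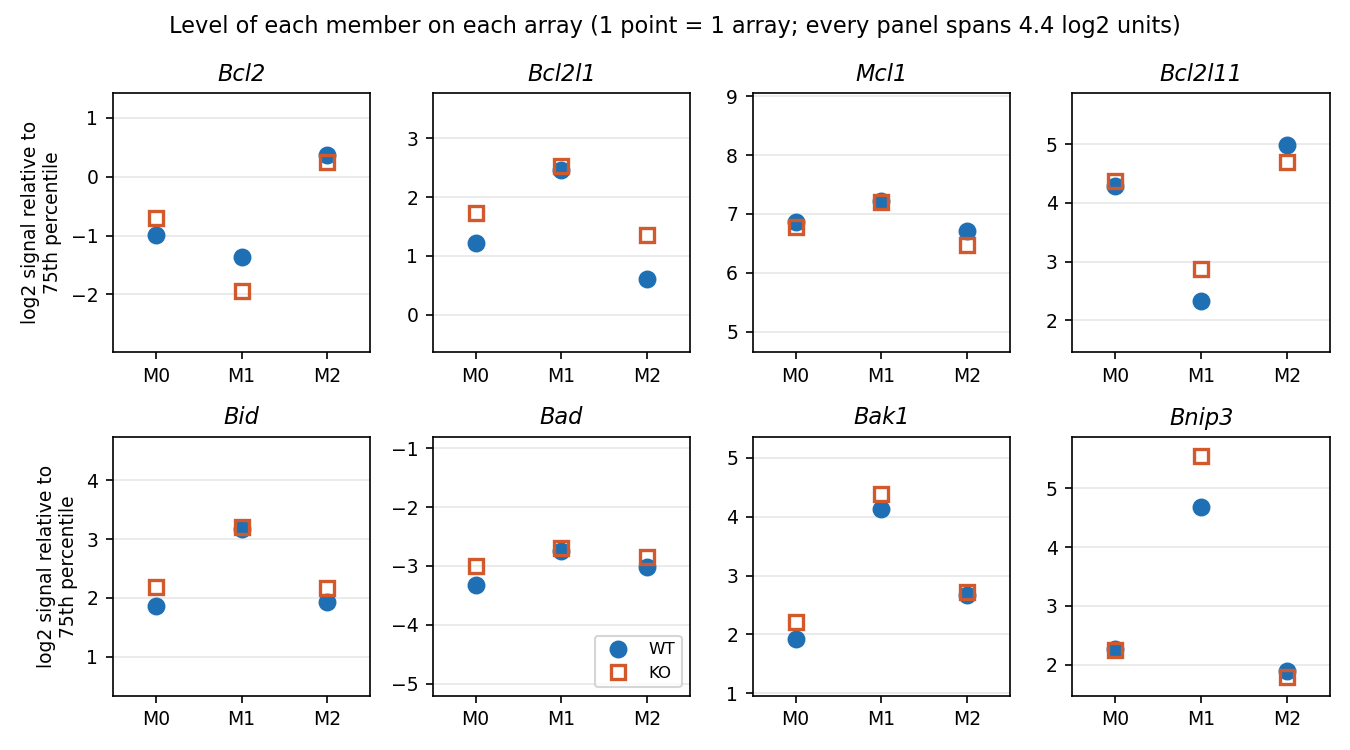
Level of the 8 members on each of the 6 arrays (vertical axis, log2 signal relative to the array's 75th percentile; horizontal axis, state; filled circles WT, open squares KO; each panel spans 4.4 log2 units). Bcl2l11 is lowest on both M1 arrays (2.33 and 2.87), Bnip3 and Bak1 are highest there, and Bcl2 is highest on both M2 arrays (0.37 and 0.24).

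The pro-survival genes did not move as 1 group. Bcl2, the founding member, read -0.999, -1.37 and 0.37 on the WT arrays of M0, M1 and M2, and -0.71, -1.94 and 0.24 on the KO arrays. Both M2 arrays were above both M0 arrays, and both M1 arrays were below them, so the 3 states did not overlap. Bcl2 fell in M1 against M2 by 1.96 ± 0.26 (SE, limma, adjusted p = 0.0173), a 3.90-fold difference. Neither step of that span was called on its own: M1 against M0 was -0.80 ± 0.26 (adjusted p = 0.103) and M2 against M0 was 1.16 ± 0.26 (adjusted p = 0.158). With slide as a block, which amounts to leaving out WT M2, Bcl2 in M1 against M2 was -1.97 and no longer called.

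All 3 Bcl2 probes read M1 below M2. In a separate limma fit over 28779 probes, in which 28.5% of probes were called in M1 against M2, they gave -1.96, -1.31 (the printed coding probe) and -2.17, and all 3 were called. In M1 against M0 they gave -0.80, -0.20 and -1.30, and on the coding probe WT cells were higher in M1 by 0.31 while KO cells were lower by 0.71. The brightest Bcl2 probe is printed 10 times on each array, and the SD of its log2 signal over the 8 to 10 spots kept was 0.0245 to 0.0960, which measures the spots and not the cultures.

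Bcl2l1, the gene of BCL-XL, was highest in M1. Its level was 1.22 in WT M0, 2.46 in WT M1 and 0.60 in WT M2, and 1.74, 2.52 and 1.36 in the KO cells. The M1 arrays stood above the other 4 in both genotypes, while M0 and M2 overlapped. Bcl2l1 rose in M1 against M2 by 1.51 ± 0.23 (limma, adjusted p = 0.0225), a 2.84-fold difference; with slide as a block this was 1.27 and not called (adjusted p = 0.0718). Against M0 it was 1.01 ± 0.23 higher, a 2.02-fold difference that lay just outside the threshold (adjusted p = 0.0501) and was called in 5 of 9 processing alternatives, among them slide as a block (adjusted p = 0.0450).

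The 3 Bcl2l1 probes gave nearly the same difference. M1 against M0 was 1.01, 1.13 and 1.08 (the printed coding probe), and in the separate fit over all probes, with 28.9% of probes called, their adjusted p-values were 0.0430, 0.0229 and 0.0452. Over the 10 spots of the brightest Bcl2l1 probe the SD within an array was 0.0401 to 0.0787.

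Mcl1, whose short-lived protein is replaced from its message, had the smallest spread of the pro-survival genes. It read 6.86, 7.23 and 6.71 in WT M0, M1 and M2, and 6.77, 7.21 and 6.47 in KO. The M1 arrays were highest in both genotypes and the M2 arrays lowest, all within 0.75 of each other. Mcl1 was 0.40 ± 0.16 higher in M1 than in M0 (limma, adjusted p = 0.146) and 0.63 ± 0.16 higher than in M2 (adjusted p = 0.0617), neither called. The difference from M0 was called in 0 of 9 processing alternatives and turned to -0.06 in the authors' deposited table, and the difference from M2 was called in 4 of 9 (adjusted p from 0.0165 to 0.273). Its second, dimmer probe was 0.84 ± 0.15 higher in M1 than in M0 (adjusted p = 0.0258) and 0.91 ± 0.15 higher than in M2 (adjusted p = 0.0216), both called in the fit over all probes.

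Bcl2l11 showed the opposite course to Bcl2l1. Its brightest probe read 4.28 in WT M0, 2.33 in WT M1 and 4.99 in WT M2, and 4.37, 2.87 and 4.69 in KO. Both M1 arrays lay at least 1.40 below every other array, and both M2 arrays lay above both M0 arrays. Bcl2l11 fell in M1 against M0 by 1.72 ± 0.26 (limma, adjusted p = 0.0220), a 3.30-fold difference, and against M2 by 2.23 ± 0.26 (adjusted p = 0.0132), a 4.70-fold difference. M2 was 0.51 ± 0.26 above M0 and not called (adjusted p = 0.359).

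The fall of Bcl2l11 in M1 depended on the probe. The brightest probe gave M1 minus M0 of -1.94 in WT and -1.50 in KO. The printed probe gave -0.31 in WT and 0.54 in KO, and in the fit over all probes it was 0.12 ± 0.30 (limma, adjusted p = 0.799). The dimmest probe, at chr2:127954736-127955417, spans 682 bases of genome and so also crosses an exon junction. It gave -1.68 in WT and -0.66 in KO (fitted -1.17 ± 0.30, limma, adjusted p = 0.0559). So 1 of the 3 probes was called in M1 against M0. With the mean of the 3 probes the gene was -0.92 and not called (adjusted p = 0.0856), and with normexp background correction the brightest probe was -1.52 and not called (adjusted p = 0.0719). Against M2 the mean of the probes stayed called, at -1.42 (limma, adjusted p = 0.0360). The printed probe alone was -0.64 ± 0.30 (adjusted p = 0.185), and the dimmest probe alone was -1.40 ± 0.30 and called (adjusted p = 0.0381).

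**Figure D2:**
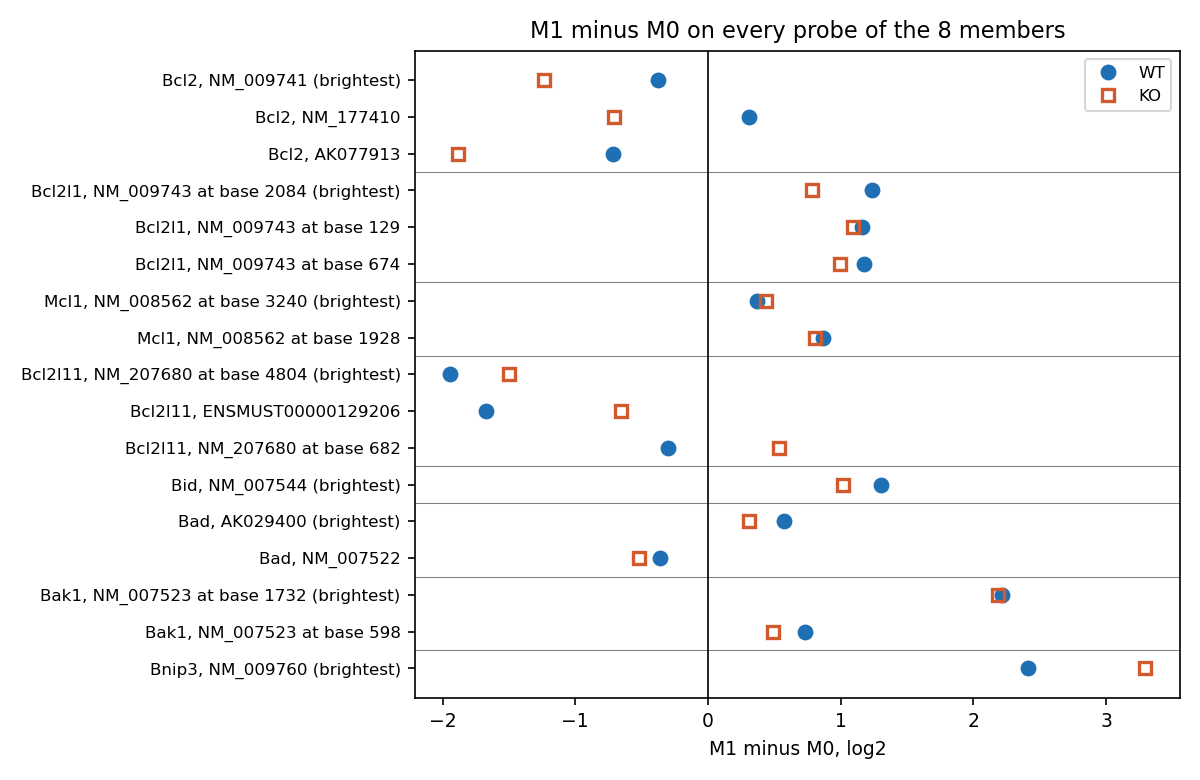
M1 minus M0 (horizontal axis, log2) on each probe of the 8 members (rows, named by gene and transcript), with WT as filled circles and KO as open squares. The 3 Bcl2l1 probes lie together near 1, whereas the Bcl2l11 probes run from -1.94 to 0.54, the Bak1 probes differ in size, and the Bad probes lie on both sides of 0.

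Bid, the BH3-only gene whose protein links death receptors to mitochondria, rose in M1. It read 1.87, 3.17 and 1.92 in WT M0, M1 and M2, and 2.19, 3.21 and 2.16 in KO. The M1 arrays were above the other 4, among which M0 and M2 overlapped. Bid rose in M1 by 1.16 ± 0.17 against M0 (limma, adjusted p = 0.0202), a 2.24-fold difference, and by 1.15 ± 0.17 against M2 (adjusted p = 0.0198). It has 1 probe, and under normexp background correction the difference from M0 was 1.24 and just outside the threshold (adjusted p = 0.0509). The difference from M2 was not called under normexp (1.08, adjusted p = 0.0682) or with slide as a block (1.12, adjusted p = 0.0707).

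Bad, a BH3-only gene whose protein is held inactive by survival kinases, has 2 probes that went opposite ways. Its brightest probe, with a range of 0.62, read -3.32, -2.74 and -3.02 in WT M0, M1 and M2, and -3.01, -2.70 and -2.85 in KO. The difference of M1 from M0 was 0.44 ± 0.16 (limma, adjusted p = 0.128). That probe was designed on the transcript AK029400 and maps to the minus strand (chr19:7025594-7025653), while the probe designed on the RefSeq Bad transcript maps to the plus strand (chr19:7016618-7016677). The RefSeq probe gave M1 minus M0 of -0.36 in WT and -0.52 in KO, the opposite direction (fitted -0.44 ± 0.19, adjusted p = 0.167). Whether the brightest probe reads the Bad transcript was not tested, and no direction is given for Bad.

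Bak1, the gene of the membrane-permeabilizing effector BAK, read 1.93, 4.14 and 2.67 in WT M0, M1 and M2, and 2.20, 4.39 and 2.71 in KO. On this brightest probe each state stood apart from the next, with M1 highest and M0 lowest in both genotypes. Bak1 rose in M1 against M0 by 2.20 ± 0.16 (limma, adjusted p = 0.00829), a 4.59-fold difference, and against M2 by 1.57 ± 0.16 (adjusted p = 0.0110). M2 was 0.63 ± 0.16 above M0 and not called (adjusted p = 0.182). On the printed coding probe the M1 difference from M0 was 0.73 in WT and 0.49 in KO (fitted 0.61 ± 0.28, limma, adjusted p = 0.177). Its M1 difference from M2 was -0.30 in WT and 0.37 in KO (fitted 0.04 ± 0.28, adjusted p = 0.929). With the mean of both probes Bak1 was 1.41 higher in M1 than in M0 and still called (adjusted p = 0.0219), and 0.81 higher than in M2 and not called (adjusted p = 0.0652).

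Bnip3 had the widest range of the 8, 3.75. It read 2.26 in WT M0, 4.67 in WT M1 and 1.89 in WT M2, and 2.26, 5.55 and 1.80 in KO. Both M1 arrays were far above the other 4, which lay between 1.80 and 2.26. Bnip3 rose in M1 by 2.85 ± 0.31 against M0 (limma, adjusted p = 0.0127), a 7.22-fold difference, and by 3.27 ± 0.31 against M2 (adjusted p = 0.00957), a 9.63-fold difference. It has 1 probe.

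**Figure D3:**
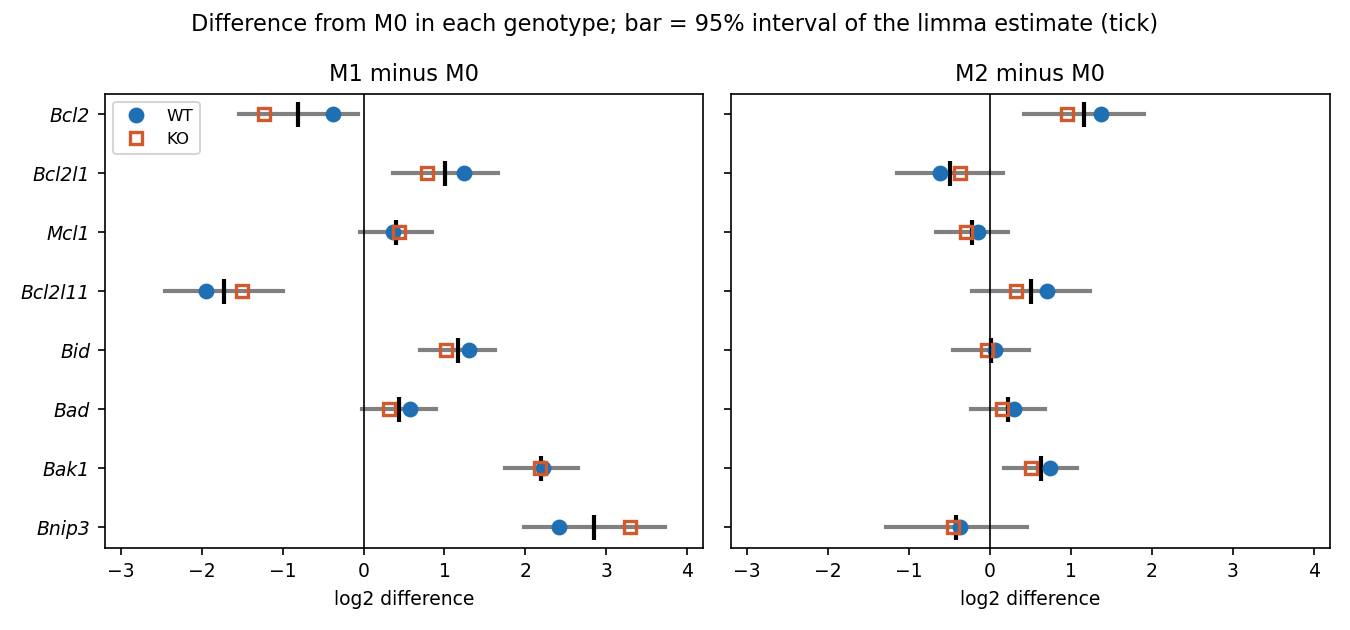
Difference from M0 (horizontal axis, log2) of each member in M1 (left) and M2 (right), with WT as filled circles, KO as open squares and the 95% interval of the limma estimate as a bar. On the brightest probes, both genotypes lie on the same side of 0 in M1 for every member. In M2 the largest difference in size is 1.37, for Bcl2 in WT.

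Against M2, 6 of 8 members were called in M1, beside 25.3% of all genes. Bcl2l1, Bid, Bak1 and Bnip3 were higher in M1 (4 members, beside 11.7% of all genes) and Bcl2 and Bcl2l11 were lower (2 members, beside 13.6%). The M1 and M2 arrays did not overlap for any member, nor for 64.2% of all genes. With slide as a block 3 members kept their call: Bcl2l11, Bak1 and Bnip3.

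IL-4 and IL-13 gave no call among the 8 members, where 19 of 19044 genes passed (0.0998%). At an unadjusted p under 0.05 there were 2 members, Bcl2 and Bak1, and 3641 genes. The M2 and M0 arrays did not overlap for 5 members, namely Bcl2, Bcl2l11 and Bak1, higher in M2, and Mcl1 and Bnip3, lower in M2; 53.3% of all genes did not overlap. With a variance prior that follows signal intensity, Bak1 passed (adjusted p = 0.0451) along with 1074 genes. The KO arrays alone, which share a slide, gave M2 minus M0 of 0.95 for Bcl2 and 0.51 for Bak1.

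The genotype comparison asked whether loss of Foxo1 altered these genes, the FoxO target Bcl2l11 first. Bcl2l11 was 0.09 higher in KO than in WT in M0 and 0.54 higher in M1, and 0.30 lower in M2. Its mean difference over the 3 states was 0.11 (95% interval -0.48 to 0.71, limma, adjusted p = 0.814). In M0, M1 and M2 the printed Bcl2l11 probe gave 0.15, 1.00 and 0.06, and the dimmest probe -0.29, 0.74 and 0.07. All 3 probes were therefore higher in KO in M1, where KO and WT lay on different slides, and they split in M0 and M2.

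No other member was called either: limma passed 0 of 8 members and 0 of 19044 genes (0%), with 0 members and 2158 genes at an unadjusted p under 0.05. With the intensity-dependent variance prior 35 genes passed and again 0 members. Across M0, M1 and M2, KO exceeded WT in Bcl2l1 by 0.52, 0.07 and 0.76, a mean of 0.45 (95% interval -0.08 to 0.98, adjusted p = 0.471), and its other probes gave 0.20 to 0.98. Bnip3 was 0.87 higher in KO in M1 and differed by -0.01 in M0 and -0.09 in M2 (mean 0.26, interval -0.45 to 0.97). For Mcl1 the differences were -0.09, -0.02 and -0.23, with a mean of -0.11 (interval -0.48 to 0.25).

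Bcl2 was 0.29 higher in KO in M0, 0.57 lower in M1 and 0.13 lower in M2, and the dimmer Bcl2 probes were 0.50 and 1.09 higher in M2, so its direction there differed between probes. Bid differed by 0.33, 0.04 and 0.24, Bad by 0.31, 0.05 and 0.16, and Bak1 by 0.28, 0.25 and 0.04. On the brightest probes no member differed by 2-fold in any state, whereas 14.2%, 15.7% and 8.24% of all genes did (M0, M1 and M2 in turn). The dimmest Bcl2 probe passed 2-fold in M2, at 1.09, and the printed Bcl2l11 probe was at 0.997 in M1. By brightest probe, the 4 members higher in KO in all 3 states were Bcl2l1, Bid, Bad and Bak1, beside 22.1% of all genes. With median centring, however, each of these was lower in KO in M1. In M0, M1 and M2 the printed Bak1 probe gave 0.70, 0.46 and -0.21, and the RefSeq Bad probe gave 0.67, 0.51 and 0.18. Mcl1 alone was lower in all 3 states, beside 15.1% of all genes.

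**Figure D4:**
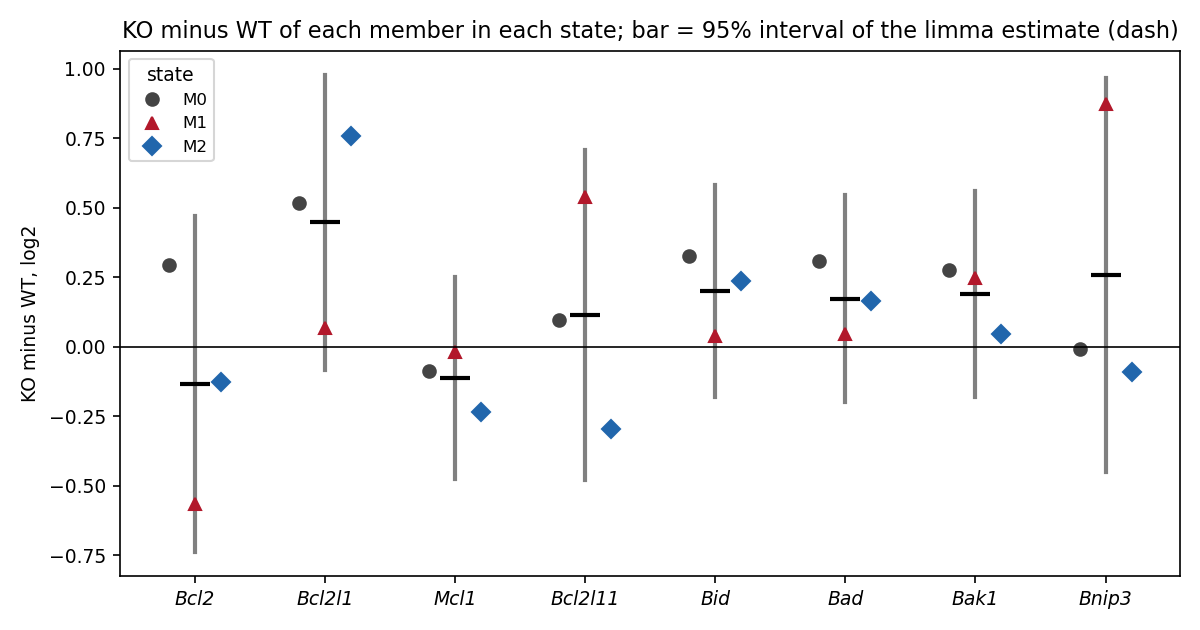
KO minus WT (vertical axis, log2) of each member in M0 (circle), M1 (triangle) and M2 (diamond), each 1 array against 1 array, with the limma mean over the 3 states as a dash and its 95% interval as a bar. Every interval includes 0, and for Bcl2 and Bcl2l11 the states lie on both sides of 0.

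Promoters are shown for the members that the FoxO and HIF background concerns. The 250 bases before an annotated start are given 5′ to 3′ from RefSeq (GRCm38.p6), at chr2:128125788-128126037 on the plus strand for Bcl2l11 and at chr7:138909507-138909756 on the minus strand for Bnip3. Capitals mark the FoxO motif GTAAACA in Bcl2l11, and the HIF core ACGTG or GCGTG on either strand in Bnip3. The motifs were chosen after the values were seen.
Bcl2l11 promoter: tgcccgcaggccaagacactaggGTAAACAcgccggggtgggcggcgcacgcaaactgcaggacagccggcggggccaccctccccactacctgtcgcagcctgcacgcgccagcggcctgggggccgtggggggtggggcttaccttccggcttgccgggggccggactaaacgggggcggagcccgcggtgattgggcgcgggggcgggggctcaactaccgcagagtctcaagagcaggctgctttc
Bnip3 promoter: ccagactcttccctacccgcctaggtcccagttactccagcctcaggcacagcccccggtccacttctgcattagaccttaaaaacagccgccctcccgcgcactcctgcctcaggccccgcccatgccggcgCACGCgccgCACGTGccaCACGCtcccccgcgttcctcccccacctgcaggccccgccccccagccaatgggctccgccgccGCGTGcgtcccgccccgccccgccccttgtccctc

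All 8 members matched the promoter table, in 12 windows of 300 bases. GTAAACA or its reverse complement TGTTTAC occurred in 1 of the 12 windows and in 3.65% of 32851 mouse windows. That window was the Bcl2l11 window printed above, where it began 227 bases before the start. Another Bcl2l11 window, at chr2:128127325-128127624, did not hold it. The HIF core occurred in 43.8% of mouse windows and in 6 of the 12 member windows, of the 4 genes Bcl2l11, Bcl2l1, Bnip3 and Bad. In the Bnip3 window it stood at 4 places, beginning 117, 108, 99 and 35 bases before the start. The CACGTG at 108 holds the core on both strands. The printed Bcl2l11 window held the HIF core at 3 places, beginning 222, 203 and 146 bases before the start. Its capitals mark the FoxO motif alone. These are matches of letters and say nothing of binding in these cells.

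Bok, a relative of the effectors BAK and BAX, and Bmf, a BH3-only gene, fell most in M1 of the other family genes. Of 19 listed, 17 were on the array under these names and 14 were tested. In M1 against M0, 2 rose and 2 fell, beside 25.6% of all genes called, and the median of the 14 was 0.18, beside 0.03 for all genes. Bmf read 1.09, -2.85 and -0.53 in WT M0, M1 and M2, and 0.72, -3.76 and -0.89 in KO. The states did not overlap, M1 lowest and M0 highest. Bmf fell in M1 by 4.21 ± 0.22 against M0 (limma, adjusted p = 0.00678), an 18.5-fold difference, and by 2.59 against M2 (adjusted p = 0.00801).

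Bok read -0.70, -4.43 and -1.92 in WT M0, M1 and M2, and -2.05, -5.03 and -2.44 in KO. It was lowest on both M1 arrays, and it fell there by 3.35 ± 0.28 against M0 (limma, adjusted p = 0.00924) and by 2.55 against M2 (adjusted p = 0.0117; 1.13 and not called under normexp, adjusted p = 0.0612). Of the stromal markers, 8 of 12 were lower in M1 than in M0. Their summed levels were 3.98 on WT M0, 2.49 on KO M0, 2.84 on WT M1 and 2.23 on KO M1. The sum includes Fn1, which itself moved with state, by -3.17 in M1 and 3.17 in M2 against M0 (the latter not called). Dcn and Lum were 1.15 and 0.97 higher in M1 than in M0, neither called. The sum need not follow stromal cells alone, and the part of these markers in the Bok values was not tested.

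Bcl2a1c and Bcl2a1b are near-identical copies of the BCL2 family gene A1, and their probes may read each other's transcripts. Whether each copy yields a working protein was not tested. In M1 against M0, Bcl2a1c rose by 1.03 ± 0.15 (limma, adjusted p = 0.0214) and Bcl2a1b by 0.78 ± 0.18 (adjusted p = 0.0495). Bcl2a1b lost its call under 5 of 9 processing alternatives, with 0.31 in the authors' deposited table (adjusted p = 0.322), and Bcl2a1c under 1, normexp. The other 10 tested genes were not called. They ran from -0.67 for Bbc3, the gene of the BH3-only protein PUMA, to 0.70 for Pmaip1, the gene of NOXA. Between these were Bcl2l12, Bax, Bcl2l14, Bnip3l, Bcl2l15, Bcl2l2, Bik and Bcl2l13, at 0.12 to 0.56. Bcl2l10, Hrk and Bnipl were not well above background on any array and were not tested.

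In KO against WT none of the 14 was called (0% of all genes were), and 6 had an unadjusted p under 0.05, beside 11.3% of all genes. Of these 6, Pmaip1, Bbc3, Bcl2l15 and Bax were higher in KO, and Bok and Bmf were lower. Pmaip1 read 1.17, 1.77 and -0.37 in WT M0, M1 and M2 and 2.34, 3.13 and 2.59 in KO, a mean difference of 1.83 ± 0.43 (limma, adjusted p = 0.377). Bbc3 read 2.55, 2.09 and 2.57 in WT and 3.69, 2.81 and 3.93 in KO, a mean difference of 1.07 ± 0.18 (adjusted p = 0.360). For both genes every KO array was above the WT array of the same state. Bcl2l15 was 0.79 ± 0.20 higher (adjusted p = 0.383) and Bax 0.70 ± 0.22 higher (adjusted p = 0.425). Bok differed by -0.82 ± 0.23 (adjusted p = 0.403) and Bmf by -0.55 ± 0.18 (adjusted p = 0.429). The summed stromal markers, Fn1 among them, were also lower on the KO arrays. They were 2.49, 2.23 and 2.41 in M0, M1 and M2 in KO, beside 3.98, 2.84 and 3.40 in WT. Their part in the Bok and Bmf values was not tested.

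**Figure D5:**
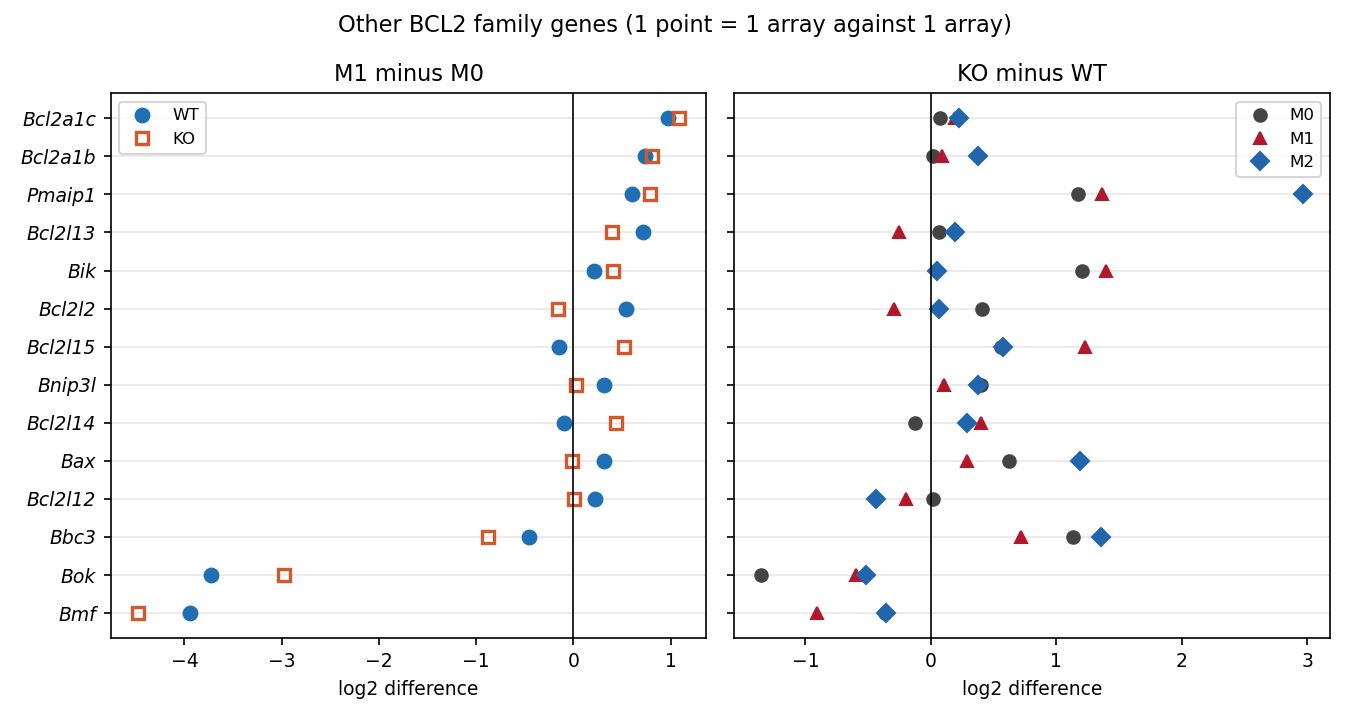
M1 minus M0 in WT and KO (left) and KO minus WT in M0, M1 and M2 (right) for the 14 other BCL2 family genes tested (rows; horizontal axes, log2; 1 array against 1 array). Bmf and Bok lie far to the left in M1 in both genotypes, and Pmaip1 and Bbc3 lie to the right of 0 in KO in all 3 states.

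The genes that act next to the family were counted in the same fit, in which 11.6% of all genes rose and 14% fell in M1 against M0, with a median of 0.03. Of 15 genes of the caspase cascade and apoptosome, 8 rose in M1 against M0 and 0 fell, with a median of 1.15. The inflammatory caspases led: Casp4 rose by 2.66 ± 0.16 (limma, adjusted p = 0.00716) and Casp1 by 2.39 ± 0.17 (adjusted p = 0.00801). Casp6, an executioner caspase gene, was the 1 gene of the list lower in M1 than in M2, where it fell by 1.98 ± 0.20 (adjusted p = 0.0105); the other 9 called there were higher, beside 11.7% of all genes higher and 13.6% lower.

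Of 20 inhibitors of apoptosis and death receptor genes, 11 rose in M1 against M0 and 0 fell (11.6% and 14% of all genes), with a median of 1.04. The largest were Tnfsf10, the gene of the death ligand TRAIL, at 5.08 ± 0.58 (limma, adjusted p = 0.0140), the adaptor Traf1 at 4.96 ± 0.25 (adjusted p = 0.00678) and Naip1 at 3.37 ± 0.16 (adjusted p = 0.00678; 1.45 and not called under normexp). Against M2, 13 were higher and 1 was lower (11.7% and 13.6% of all genes), the TRAIL receptor gene Tnfrsf10b, which fell by 1.71 ± 0.31 (adjusted p = 0.0305) and lost its call under 4 of 9 processing alternatives.

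Bnip3 is 1 of the HIF targets by background knowledge, and of 20 other HIF target genes 10 rose in M1 against M0 and 0 fell (11.6% and 14% of all genes), with a median of 1.22. Egln3, an oxygen-sensing hydroxylase, rose by 3.36 ± 0.37 (limma, adjusted p = 0.0132; 1.40 and not called under normexp). Pfkfb3, a regulator of glycolysis, rose by 3.18 ± 0.19 (adjusted p = 0.00716), and the glucose transporter Slc2a1 by 2.42 ± 0.24 (adjusted p = 0.0113). These genes were named for having the largest M1 against M0 differences in the list. That each was highest on both M1 arrays, as Bnip3 was, follows in part from that choice.

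Of 11 FoxO factors and upstream kinases tested, 1 rose in M1 against M0 and 0 fell, near the 11.6% of all genes that rose. Foxo3 and Foxo4 differed between KO and WT by 0.08 ± 0.16 (limma, adjusted p = 0.829) and 0.36 ± 0.22 (adjusted p = 0.543). Of 11 genes that control the turnover of the MCL1 and BIM proteins, 2 rose in M1 against M0, beside 11.6% of all genes: the ubiquitin ligase adaptor Btrc by 0.79 ± 0.16 (adjusted p = 0.0387) and the phosphatase subunit Ppp2ca by 0.74 ± 0.15 (adjusted p = 0.0408). Neither was called without the filter on dim probes, and Btrc turned to -0.11 under normexp; Ppp2ca lost its call under 5 of 9 processing alternatives. In M2 against M0 and in KO against WT, 0 genes of any of these lists were called by limma; at an unadjusted p under 0.05 the counts, in the order given above, were 6, 3, 9, 1 and 0 in M2 against M0, beside 19.1% of all genes, and 1, 2, 1, 1 and 0 in KO against WT, beside 11.3%.

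The genes whose levels ran most like a member's over the 6 arrays are given as a description. The 6 arrays share 3 states and 2 genotypes, and high values of r are common among 15876 genes over 6 points. Ncs1 ran closest to Bcl2l11 (Pearson r = 0.9995), Nolc1 to Bcl2 (0.998), Btaf1 to Bcl2l1 (0.997) and Prkrip1 to Bid (0.999). For Bak1 it was Tgm2 (0.999) and for Bnip3 Stx2 (0.999). Among the members themselves, Bnip3 and Bid ran together (r = 0.956, 6 arrays), as did Bak1 and Bid (0.954). Bcl2l11, by its brightest probe, ran opposite to Bid (-0.938), Bnip3 (-0.934), Mcl1 (-0.921) and Bcl2l1 (-0.917). Many other genes ran closer: Bid ranked 844 of 15876 genes in likeness to Bnip3 and 695 in likeness to Bak1. In likeness to Bcl2l11 it ranked 15025, so many genes were also more opposite. The spans of Mcl1 and Bad were below 1, and no closest genes were sought for them.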

How the data were processed

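The authors deposited scanner output for 6 one-colour Agilent arrays of design 014868 (total RNA, Cy3). Per the file headers, version 10.7.3.1 of Feature Extraction made the spot intensity values and subtracted the background, with no scaling between arrays. The authors also deposited a log2 table of the same arrays; each column correlated with its own array at r of at least 0.99886, its medians were 5.39 to 5.41, and the sources used here do not give its centring. It served as an alternative.

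Control spots and outlier spots (79 to 164 of 43379 per array) were left out, replicate spots were averaged, and 37 of 41174 probes that lacked a value on some array were dropped. A gene's brightest probe on average stood for it, and genes entered the tests if 2 or more of 6 arrays had that probe well above background. With limma 3.58.1 (R 4.3.3) an additive model of state and genotype was fitted (2 residual df, prior df 1.88), after the code was tested on simulated data. P-values measure only the spread left by that model. Only 6 arrays limit the precision. Alternatives were normexp (offset 50), median centring, quantile normalization, the authors' table, other filters on dim probes, the mean of a gene's probes, slide as a block, an intensity trend and leaving out each array. For differences between states, slide as a block equals leaving out WT M2. The fit over all probes was added after seeing that probes of a gene disagreed. The members and lists were chosen with earlier results of these data known. Named were the 8 members, the tested genes of the other BCL2 family list, up to 3 called genes of each further list by size in each direction, and Foxo1, Foxo3 and Foxo4. Values of some single genes of the lists are not reported here.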

Additional observations from a re-analysis of the deposited data

Results flagged for a closer look

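For 2 members the difference between KO and WT took opposite signs in 2 states by more than 0.25 in each, a size set after the values were seen. Bcl2 was 0.29 higher in KO in M0 and differed by -0.57 in M1. Its dimmer probes gave 0.67 and 0.64 in M0 and -0.35 and -0.52 in M1, the same signs. Bcl2l11 was 0.54 higher in KO in M1 and differed by -0.30 in M2. Its dimmer probes gave 1.00 and 0.74 in M1 and 0.06 and 0.07 in M2. Each value is 1 array against 1 array, and the difference between states was not tested. In M0 and M1 the KO and WT arrays lay on different slides, which cannot be told apart from genotype there.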

How the results depend on the processing

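Leaving out 1 array gave 0 to 5 members called in M1 against M0 and 0 to 5403 of all genes (4867 with all 6 arrays), and 0 of both without either M0 or M1 array of either genotype. In M1 against M2 this gave 0 to 6 members and 0 to 4748 of all genes (4815 with all arrays), the lowest without either M1 array, and in M2 against M0 it gave 0 genes without any 1 array. With normexp, M1 against M0 called 2 members (Bak1 and Bnip3) and 1283 genes, M1 against M2 1346 genes and M2 against M0 0 genes. Slide as a block called 3 members and 2188 genes in M1 against M2 and 0 genes in M2 against M0. The intensity trend called 1 member (Bak1) and 1074 genes in M2 against M0, and 35 genes in KO against WT. In M2 against M0, where 19 genes passed, the authors' table called 153, median centring 478, quantile normalization 147, genes well above background on all 6 arrays 272, and no filter 0.

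Under the 9 processing alternatives Bak1 and Bnip3 kept their M1 against M0 call and Bcl2l11 and Bnip3 their M1 against M2 call. Directions turned as follows. In M1 against M0, Mcl1 was -0.064 in the authors' table, and Bad was -0.19 with normexp and -0.44 on its RefSeq probe. Btrc was -0.11 with normexp, and Bcl2l11 was 0.12 on its printed probe. In M2 against M0, Bid was -0.00369 in the authors' table, -0.079 with median centring and -0.0066 with quantile normalization, and Bad was -0.34 with normexp and -0.084 on its RefSeq probe. In M1 against M2, Bad was -0.069 with the mean of probes and -0.35 on its RefSeq probe. In KO against WT, Bcl2 was 0.18 with the mean of probes and 0.27 and 0.40 on its dimmer probes, Foxo3 was -0.011 with median centring, and Bcl2l11 was -0.30 and Bnip3 -0.089 with slide as a block. The values with slide as a block are the differences of the M2 arrays alone. Leaving out 1 array gave -0.35 to 0.082 for Bcl2, -0.10 to 0.32 for Bcl2l11, -0.048 to 0.43 for Bnip3 and -0.0056 to 0.23 for Foxo3 in KO against WT, -0.080 to 0.11 for Bid in M2 against M0 and -0.051 to 0.28 for Bcl2l12 in M1 against M0. Of the differences of the other 14 family genes over 4 comparisons, 0 of 6 called and 16 of 50 not called turned under at least 1 processing alternative. Over the 9 alternatives M1 against M0 called 2 to 6 of the other family genes (4 as reported), 5 to 11 caspase genes (8), 8 to 14 inhibitor genes (11), 7 to 13 HIF targets (10), 1 to 3 FoxO and kinase genes (1) and 0 to 3 turnover genes (2); in M1 against M2 the ranges were 1 to 3, 3 to 13, 9 to 16, 7 to 14, 1 to 5 and 0 to 3. In M2 against M0 up to 2 family genes, 2 caspase genes and 6 HIF targets were called, the most with the intensity trend, which also called 1 FoxO and kinase gene (Foxo1) in KO against WT. The probe-wise values are an alternative chosen after seeing the data. The cause of these changes was not tested.

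The median of all genes moved by over 0.1 with normexp, from 0.03 to -0.35 in M1 against M0, from 0.08 to -0.22 in M2 against M0 and from -0.17 to -0.01 in M1 against M2, and with median centring to 0.26 in M1 against M0 and 0.15 in M1 against M2; slide as a block moved it to 0.01 in M1 against M2 and to -0.05 in KO against WT. The share of called genes that were higher was 45.3% in M1 against M0 and 58.8% with median centring; in M1 against M2 it was 46.2%, and 64.4% with median centring. In M2 against M0 it was 78.9%, and 47.5% with median centring, 61.4% in the authors' table and 61.9% with quantile normalization. No paired analysis was possible because every group has replicate number 1 alone, so no number can serve as a block; the genotype and state terms of the fit already set arrays of the same genotype or state against each other.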
